A study of Mus musculus with 84 samples.

Results

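Epididymal white adipose tissue (eWAT) of diet-induced obese (DIO) mice given BI 456906 at 30 nmol/kg was compared with eWAT of mice given vehicle. BI 456906 is a peptide that activates both the glucagon receptor (GCGR) and the glucagon-like peptide-1 receptor (GLP-1R). The comparison holds 12 of the 84 libraries of the series, 6 for each group, chosen by the tissue and treatment group in their labels. All mice were male C57BL/6J on a 60% high-fat diet, about 22 weeks old at the start, housed singly and dosed subcutaneously once daily for 30 days with BI 456906 or with the vehicle, a phosphate buffer with mannitol. Of 11 mice randomised to each group the series holds 6 eWAT libraries, how they were picked is not given in the sources used here, and no label states that each library is a separate mouse, so p-values measure the spread between these libraries. The other 72 libraries were eWAT of mice given BI 456906 at 3, 10 or 20 nmol/kg or semaglutide, an agonist of GLP-1R alone, at 20 or 100 nmol/kg, and liver of all 7 groups. RNA of unsorted tissue was sequenced, so a lower level cannot be told apart between fewer cells of a type and less RNA per cell.

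Epididymal fat is a visceral depot that stores triglyceride in large adipocytes and enlarges with obesity, when macrophages and lymphocytes gather in it. Its adipocytes make fat from circulating lipid and glucose under insulin and release it by lipolysis when cAMP rises, a signal that adrenergic, melanocortin and other Gs-coupled receptors raise. Weight loss in mice is known to lower leptin and the genes that follow adipocyte expansion, and the adipose tissue of mice holds little GLP-1R.

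The 12 libraries held 40313670 to 50769372 reads in genes. Of 48794 genes listed, 18536 passed the filter on low values and were tested. Some eWAT libraries held RNA of liver: the level of 49 liver genes relative to liver was 0.0416% to 7.81% (median 2.31%) in vehicle and 0.0264% to 1.32% (median 0.137%) in BI 456906 (p = 0.0216, exact two-sided permutation test over all arrangements of 6 against 6). Therefore 684 tested genes with a mean liver level of at least 1 TPM (a level corrected for gene length and sequencing depth) and at least 10 times their median in eWAT were set aside, and 17852 are described. Vehicle libraries 1 and 3 held most of the B cell RNA, with summed levels of 14 B and plasma cell markers of 10409.6 and 10843 TPM against 373 to 1269 TPM in the other vehicle libraries and 198 to 971 TPM in BI 456906. For many lists the counts are given with and without vehicle libraries 1 and 3. The adipocyte marker Adipoq was at 1319.9 to 3169 TPM (median 1592) in vehicle and 1107 to 2183 TPM (median 1974) in BI 456906, and 17 of 20 epididymis and testis transcripts were below the filter. These levels mark the libraries as fat and cannot tell from which depot it came.

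**Figure D1:**
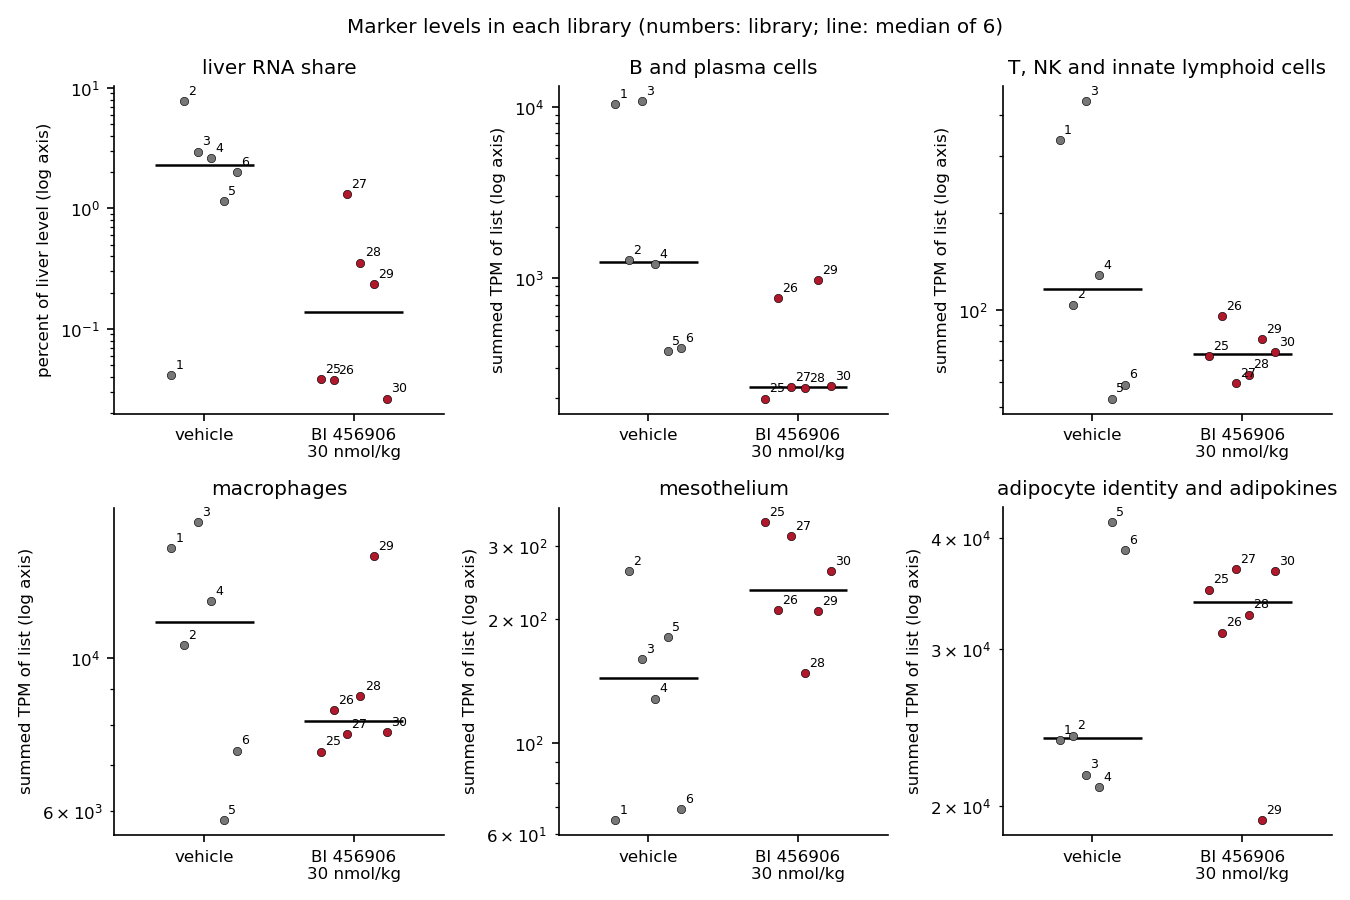
Level of liver RNA (percent of the liver level, median of 49 genes) and summed TPM of 5 cell marker lists, each on a log axis, in the 6 vehicle and 6 BI 456906 libraries, with each library's number and the group median as a line. Vehicle libraries 1 and 3 stand above all others for B and plasma cells, vehicle library 2 has the highest liver share, 7.81%, and BI 456906 library 29 has the lowest adipocyte sum.

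Treatment was followed by broad change. Calls required a log2 fold change of 1 or more in either direction together with a false discovery rate (FDR, limma/voom with Benjamini-Hochberg adjustment over 18536 genes) of no more than 0.05. Of the 17852 genes, 418 (2.34%) were called higher and 433 (2.43%) lower in BI 456906. By the FDR alone 2004 (11.2%) rose and 2066 (11.6%) fell, and these shares are the background for each list below. Here "rose" and "fell" are written of genes at an FDR of at most 0.05. Scaled by library size alone, 2798 rose and 1478 fell, so that the share of rises went from 49.2% to 65.4%. The 6 values of the groups did not overlap in TPM for 1142 genes (6.40%), of which 631 (3.53% of all) were higher and 511 (2.86%) lower. Without vehicle libraries 1 and 3, 236 genes were called higher and 399 lower. Where an alternative setting took the FDR of a gene above 0.05, the range of its FDR over the alternatives follows its value. Alternatives that gave a gene no FDR, such as those whose filter left it out, do not count in this. A gene named without a value has no range, so its rise or fall may not hold under every alternative.

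**Figure D2:**
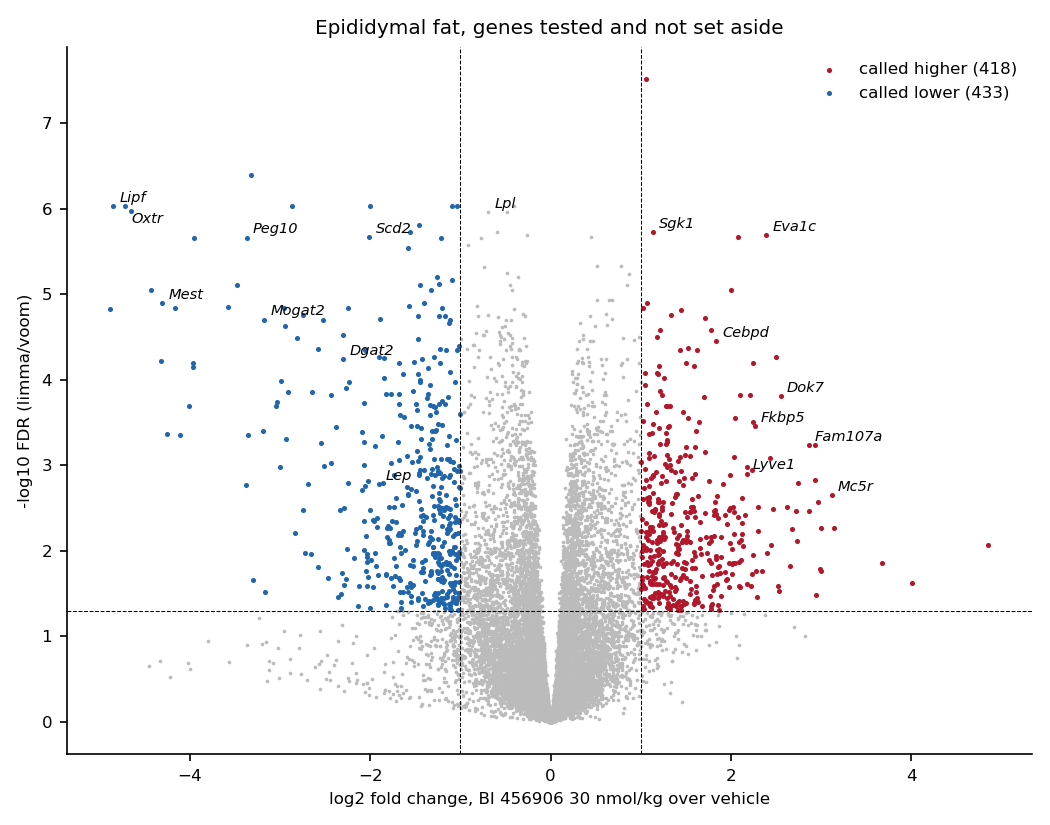
Log2 fold change (BI 456906 30 nmol/kg over vehicle) against -log10 FDR for the 17852 genes tested and not set aside, with dashed lines at a log2 fold change of 1 in either direction and an FDR of 0.05. The 418 genes called higher are red and the 433 called lower are blue, and Mest, Oxtr and Lipf lie far to the left.

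Leptin fell, as did 7 of the 15 described genes of a list that tracks fat mass. Leptin (Lep, chromosome 6, 29060220 to 29073877 in the mm10 build), the adipocyte hormone that reports energy stores, was at 810 to 1646 TPM (median 965) in vehicle and 169.6 to 527 TPM (median 306) in BI 456906 (log2 fold change -1.9 ± 0.43 SE, FDR 0.00165). All 6 treated libraries were below all 6 vehicle libraries. Mest (chromosome 6, 30723547 to 30748465), an imprinted gene that adipocytes switch on as they enlarge, went from 174–498 TPM, median 247, to 6.8–51.2 TPM, median 12.3 (log2 fold change -4.31 ± 0.62 SE, FDR 1.27e-05), again with no overlap. Library 28 held the highest treated value of both genes. Of the 15 fat mass expansion genes described, 0 rose and 7 fell (median log2 fold change -0.57, against -0.02 over all genes), and 9 fell without vehicle libraries 1 and 3. They included Sfrp5, a secreted Wnt inhibitor of adipocytes (from 203–766 TPM, median 329.6, to 58.4–268 TPM, median 146, log2 fold change -1.64 ± 0.43 SE, FDR 0.00579), Npr3, the clearance receptor for natriuretic peptides (log2 fold change -1.44, FDR 0.00325), Bmp3 (log2 fold change -1.32, FDR 0.00581), Lctl (log2 fold change -1.17, FDR 0.0134) and Hp, haptoglobin (from 1962–3477 TPM, median 2545, to 813–1196 TPM, median 1071, log2 fold change -1.35 ± 0.27 SE, FDR 0.000564). Liver RNA at each library's share would make up 5.0% of the mean vehicle level of Hp. Peg10, an imprinted gene outside the list, fell from 11.8–34.1 TPM, median 15.9, to 0.68–2.62 TPM, median 1.98 (log2 fold change -3.37 ± 0.44 SE, FDR 2.18e-06).

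Most general adipocyte genes did not pass the test. Of 21 members of the adipocyte list described, Cfd rose and Lep, Sfrp5 and Npr3 fell (median -0.27). Adipoq, adiponectin, had a log2 fold change of -0.07 (FDR 0.881). Fabp4, the fatty acid binding protein of adipocytes, was at 12102 to 23205 TPM (median 13599) in vehicle and 11961 to 21436 TPM (median 20537) in BI 456906 (log2 fold change 0.23 ± 0.23 SE, FDR 0.476), with wide overlap. Cfd, the serine protease adipsin, went from 414–1763 TPM, median 953, to 1266–4601 TPM, median 3869 (log2 fold change 1.6 ± 0.57 SE, FDR 0.0373, 0.000837 to 0.0987 over the alternatives). The summed level of the 24 listed genes was 21027 to 41652 TPM in vehicle and 19304 to 36912 TPM in BI 456906, and the 2 groups overlapped (log2 ratio of means 0.17, p = 0.439, exact two-sided permutation test). The median over the list in place of the sum turned the direction, to a log2 ratio of -0.81 (p = 0.0152, exact permutation test, not adjusted over the lists).

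The 10 steepest rises with no overlap between groups were in Mc5r, Ripk4, Fam107a, Fyb2, Isl1, Dok7, Rasl10b, Plcxd3, Eva1c and Lrp2, with log2 fold changes of 3.12, 2.96, 2.86, 2.72, 2.67, 2.55, 2.5, 2.44, 2.39 and 2.3 in that order. They were picked for size from 221 called genes without overlap and a mean of at least 1 TPM in 1 group. Fam107a, an actin-binding stress gene, was at 1.05 to 5.14 TPM (median 1.87) in vehicle and 8.89 to 21.6 TPM (median 18.5) in BI 456906 (log2 fold change 2.86 ± 0.58 SE, FDR 0.000583). Eva1c went from 0.83–1.73 TPM, median 1.41, to 4.71–8.93 TPM, median 7.36 (log2 fold change 2.39 ± 0.30 SE, FDR 2.06e-06). Dok7, the adaptor of the muscle kinase MuSK, went from 0.35–1.34 TPM, median 0.92, to 2.02–6.11 TPM, median 4.6 (log2 fold change 2.55 ± 0.46 SE, FDR 0.000155). The small GTPase gene Rasl10b went from 0.25–1.25 TPM, median 0.42, to 1.33–4.36 TPM, median 3.08 (log2 fold change 2.5 ± 0.41 SE, FDR 5.49e-05). Lower in level were Ripk4, a kinase of epithelial differentiation (from 0.26–0.78 TPM, median 0.365, to 1.33–5.54 TPM, median 4.3, log2 fold change 2.96 ± 0.71 SE, FDR 0.00272, 6.41e-05 to 0.0519 over the alternatives), Isl1, a LIM homeodomain transcription factor (from 0.010–0.72 TPM, median 0.53, to 0.86–3.77 TPM, median 2.51, FDR 0.00555), and Lrp2, the endocytic receptor megalin (from 0.020–0.60 TPM, median 0.455, to 0.76–2.16 TPM, median 1.11, FDR 0.00585). Plcxd3 (FDR 0.000825) and Fyb2 (FDR 0.00344) stayed below 4 TPM in every library. Liver RNA would make up 39.3% of the mean vehicle level of Fyb2 and 18.4% of that of Ripk4, in the group where both were lower.

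The 10 steepest falls chosen in the same way were in Gas2l2, Lipf, Oxtr, Pvalb, Mest, Tekt1, Bpifb6, Tph2, Ncan and Slc5a7. Oxtr (chromosome 6, 112473683 to 112489943), the oxytocin receptor, was the most abundant after Mest and went from 31.8–51 TPM, median 38.6, to 0.64–3.61 TPM, median 1.34 (log2 fold change -4.72 ± 0.55 SE, FDR 9.37e-07), so its highest treated value was far below its lowest vehicle value. Slc5a7, the high-affinity choline transporter, went from 8.15–24.6 TPM, median 17, to 0.67–3.13 TPM, median 1.54 (log2 fold change -3.48 ± 0.49 SE, FDR 7.91e-06). Tph2, the neuronal enzyme of serotonin synthesis, went from 4.55–22.1 TPM, median 11.7, to 0.24–1.96 TPM, median 0.59 (log2 fold change -3.97 ± 0.67 SE, FDR 7.12e-05). Lipf, gastric lipase, went from 2.3–7.42 TPM, median 4.33, to 0.030–0.42 TPM, median 0.090 (log2 fold change -4.85 ± 0.58 SE, FDR 9.37e-07). The other members were low in vehicle and close to 0 after treatment. Gas2l2 had 144 to 381 reads in vehicle and 4 to 25 in BI 456906 (log2 fold change -4.88). Pvalb, the calcium-binding parvalbumin, had 15 to 93 and 0 to 4 reads (log2 fold change -4.43). The fold changes of Ncan, a brain proteoglycan, Tekt1, a protein of cilia, and Bpifb6 were -3.95, -4.25 and -4.11. In these 5 genes the fitted size depends on few reads after treatment, and Lipf too was close to 0 then, at no more than 0.42 TPM.

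**Figure D3:**
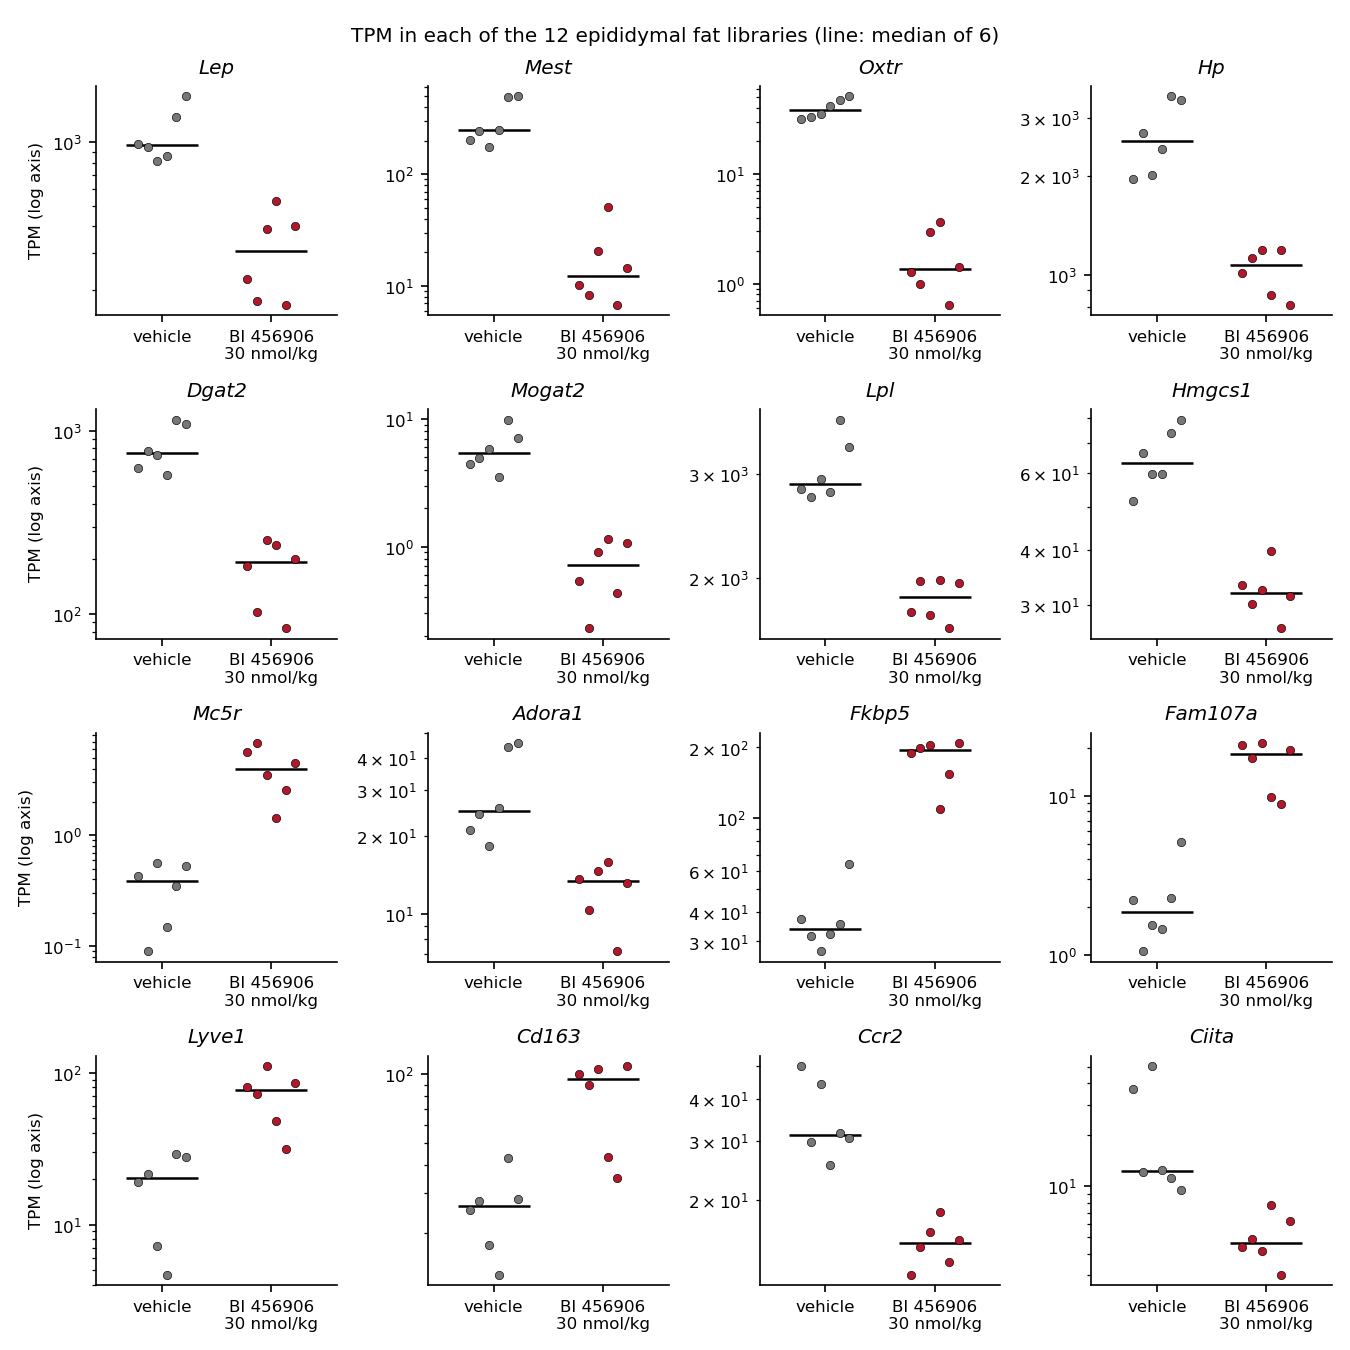
TPM (log axis) of 16 genes in each of the 6 vehicle (grey) and 6 BI 456906 30 nmol/kg (red) libraries, with the median of 6 as a line. The groups do not overlap for 15 of the 16, the exception being Cd163.

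The receptors were next. Glp1r was at 0 to 0.090 TPM in vehicle and at 0 in all 6 treated libraries, and was not tested. Gcgr was set aside: its liver level was 225 TPM, and its eWAT level of 1.61 to 19 TPM (median 7.67) in vehicle and 1.55 to 5.8 TPM (median 3.94) in BI 456906 stood beside liver RNA that would make up 72.1% of the vehicle mean. Of 8 other receptors for incretins, glucagon-family and melanocortin peptides, 3 rose and 3 fell. Mc5r, a melanocortin receptor through which peptides of the POMC family raise lipolysis in mouse adipocytes, went from 0.090–0.56 TPM, median 0.39, to 1.43–6.81 TPM, median 3.98 (log2 fold change 3.12 ± 0.73 SE, FDR 0.00223). The secretin receptor Sctr went from 2.61–8.22 TPM, median 3.93, to 5.77–13.2 TPM, median 12 (log2 fold change 1.27 ± 0.33 SE, FDR 0.00488, 7.13e-05 to 0.117 over the alternatives), and Adcyap1r1, the receptor for PACAP, had a log2 fold change of 0.55 (FDR 0.00867, 0.000896 to 0.136 over the alternatives). Gipr, the receptor for the incretin GIP, fell from 5.45–11.6 TPM, median 7.45, to 2.13–6.22 TPM, median 4.71 (log2 fold change -0.75 ± 0.24 SE, FDR 0.0212, 0.0177 to 0.0776 over the alternatives). Mc2r, the ACTH receptor, fell with it (log2 fold change -0.71, FDR 0.0372, 0.0294 to 0.127 over the alternatives), and so did the scarcely expressed Glp2r (log2 fold change -0.81, FDR 0.00156).

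The lipolysis list as a whole moved little: of 24 members 3 rose and 2 fell (median -0.04). Adora1, the adenosine receptor that restrains lipolysis through Gi, fell from 18.4–45.7 TPM, median 25, to 7.18–15.9 TPM, median 13.4 (log2 fold change -1.22 ± 0.26 SE, FDR 0.000854). Npy1r, a Gi-coupled neuropeptide Y receptor, rose from 1.01–1.61 TPM, median 1.37, to 1.91–3.08 TPM, median 2.62 (log2 fold change 0.94 ± 0.17 SE, FDR 0.000134). Abhd5, the activator of the triglyceride lipase, had a log2 fold change of 0.57 (FDR 0.015, 3.73e-05 to 0.197 over the alternatives). Prkaca, a catalytic subunit of protein kinase A, fell. The 2 main lipases did not pass the test: Pnpla2 (ATGL) was at 984 to 1957 TPM (median 1185) and 1281 to 2509.5 TPM (median 2305) (log2 fold change 0.63 ± 0.26 SE, FDR 0.0732) and Lipe (hormone-sensitive lipase) had a log2 fold change of -0.04 (FDR 0.93). Adrb3, the main adrenergic receptor of mouse adipocytes, was at 126 to 439.9 TPM (median 218) and 43.5 to 280.2 TPM (median 167) (log2 fold change -0.55 ± 0.50 SE, FDR 0.45).

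Of 21 genes of triglyceride uptake and synthesis, 3 rose and 5 fell. Dgat2 (chromosome 7, 99153658 to 99182719), an acyltransferase that makes triglyceride from diacylglycerol, was at 574 to 1147 TPM (median 751) in vehicle and 83.9 to 254 TPM (median 191) in BI 456906 (log2 fold change -2.3 ± 0.38 SE, FDR 5.74e-05). Mogat2, which makes the diacylglycerol from monoacylglycerol, went from 3.51–9.87 TPM, median 5.4, to 0.23–1.14 TPM, median 0.72 (log2 fold change -3.17 ± 0.48 SE, FDR 1.98e-05). Lpl, the lipoprotein lipase that brings in circulating fat, fell from 2740.4–3708 TPM, median 2888, to 1649–1989.5 TPM, median 1860.2 (log2 fold change -0.70 ± 0.08 SE, FDR 1.1e-06), a small change with little spread. Gpd1 and Agpat2 fell as well. On the other side Lpin1, a phosphatidate phosphatase and coactivator, went from 64.6–139.5 TPM, median 85.6, to 122.8–304 TPM, median 248 (log2 fold change 1.24 ± 0.39 SE, FDR 0.0205, 0.000197 to 0.172 over the alternatives), Slc27a1, a fatty acid transporter, had a log2 fold change of 0.59 (FDR 0.0158, 6.43e-05 to 0.318 over the alternatives), and Gpat4 rose. The median of the list was -0.03, and the counts were 1 and 5 without vehicle libraries 1 and 3 and 6 and 5 with quality weights. They were 0 and 5 without libraries 1, 2 and 3. Pck1, which supplies glycerol for re-esterification, had a log2 fold change of 0.92 (FDR 0.14).

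De novo lipogenesis, the making of fatty acids from acetyl-CoA, fell in 10 of 21 genes and rose in 1 (median -0.33; 10 and 0 without vehicle libraries 1 and 3). The count of falls was 6 without vehicle library 5, 6 with the 12 libraries alone and 7 without library 26. The largest falls were in Pnpla3, a lipid droplet acylhydrolase (from 13.8–24.9 TPM, median 21.1, to 1.86–7.66 TPM, median 4.55, log2 fold change -2.25 ± 0.33 SE, FDR 1.44e-05), and Scd2, a desaturase (from 32.7–107 TPM, median 56, to 10.2–23.8 TPM, median 14.6, log2 fold change -2.01 ± 0.26 SE, FDR 2.13e-06), both without overlap. Elovl6, the elongase of saturated chains, went from 4.39–9.47 TPM, median 6.11, to 1.61–4.58 TPM, median 2.3 (log2 fold change -1.29 ± 0.21 SE, FDR 5.49e-05), and 10.2% of its vehicle mean could be liver RNA. Fasn, the fatty acid synthase, went from 148–648 TPM, median 264, to 66.4–256 TPM, median 152 (log2 fold change -1.06 ± 0.35 SE, FDR 0.023, 0.00836 to 0.0963 over the alternatives), a difference with overlap between the groups. Acly, which makes the acetyl-CoA, had a small fall (log2 fold change -0.33, FDR 0.000256), as had Me1, a source of NADPH (log2 fold change -0.73, FDR 0.00834). Acacb, the mitochondrial acetyl-CoA carboxylase whose malonyl-CoA restrains fatty acid entry, rose from 19.9–51.8 TPM, median 27, to 30–105 TPM, median 85.3 (log2 fold change 1.22 ± 0.42 SE, FDR 0.0323, 0.000307 to 0.323 over the alternatives). The regulator Srebf1 was at 74.3 to 112 TPM (median 90.6) and 68.9 to 101 TPM (median 88.9) (log2 fold change -0.10 ± 0.11 SE, FDR 0.518), and Scd1, the most abundant desaturase, had a log2 fold change of -0.35 (FDR 0.437).

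Cholesterol synthesis moved one way. Of 20 genes described 10 fell and none rose, all 20 had a negative log2 fold change (median -0.38), and 10 fell without vehicle libraries 1 and 3. The groups did not overlap for 8 of them. Hmgcs1 (chromosome 13, 119690379 to 119708260), an early enzyme of the pathway, was at 51.8 to 79.3 TPM (median 63) in vehicle and 26.5 to 39.7 TPM (median 31.9) in BI 456906 (log2 fold change -1.01 ± 0.16 SE, FDR 4.01e-05). Insig1, the sterol sensor that holds SREBP in the endoplasmic reticulum and is itself an SREBP target, went from 56.3–104 TPM, median 71.6, to 36.2–52.5 TPM, median 40.5 (log2 fold change -0.86 ± 0.14 SE, FDR 7.12e-05). Sc5d (log2 fold change -0.89, FDR 0.000699) and Fdps (log2 fold change -0.72, FDR 0.00432), enzymes of the later and middle pathway, fell as well, with up to 9.91% and 15.1% of their vehicle means attributable to liver RNA. The promoter of Hmgcs1 is shown because it was the 1 member of the list, of 14 with a promoter in the RefSeq table (GRCm38.p6), whose 250 bases before the start of transcription hold the sterol regulatory element searched for, TCACNCCAC on either strand (capitals, chr13:119690101-119690350, plus strand). The same letters stand in 1.05% of the 32851 promoters of the table.

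Hmgcs1: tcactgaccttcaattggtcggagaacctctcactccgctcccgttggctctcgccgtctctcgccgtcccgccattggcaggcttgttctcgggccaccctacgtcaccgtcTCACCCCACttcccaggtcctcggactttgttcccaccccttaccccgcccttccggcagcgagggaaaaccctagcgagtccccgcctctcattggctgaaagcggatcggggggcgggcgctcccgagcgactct

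**Figure D4:**
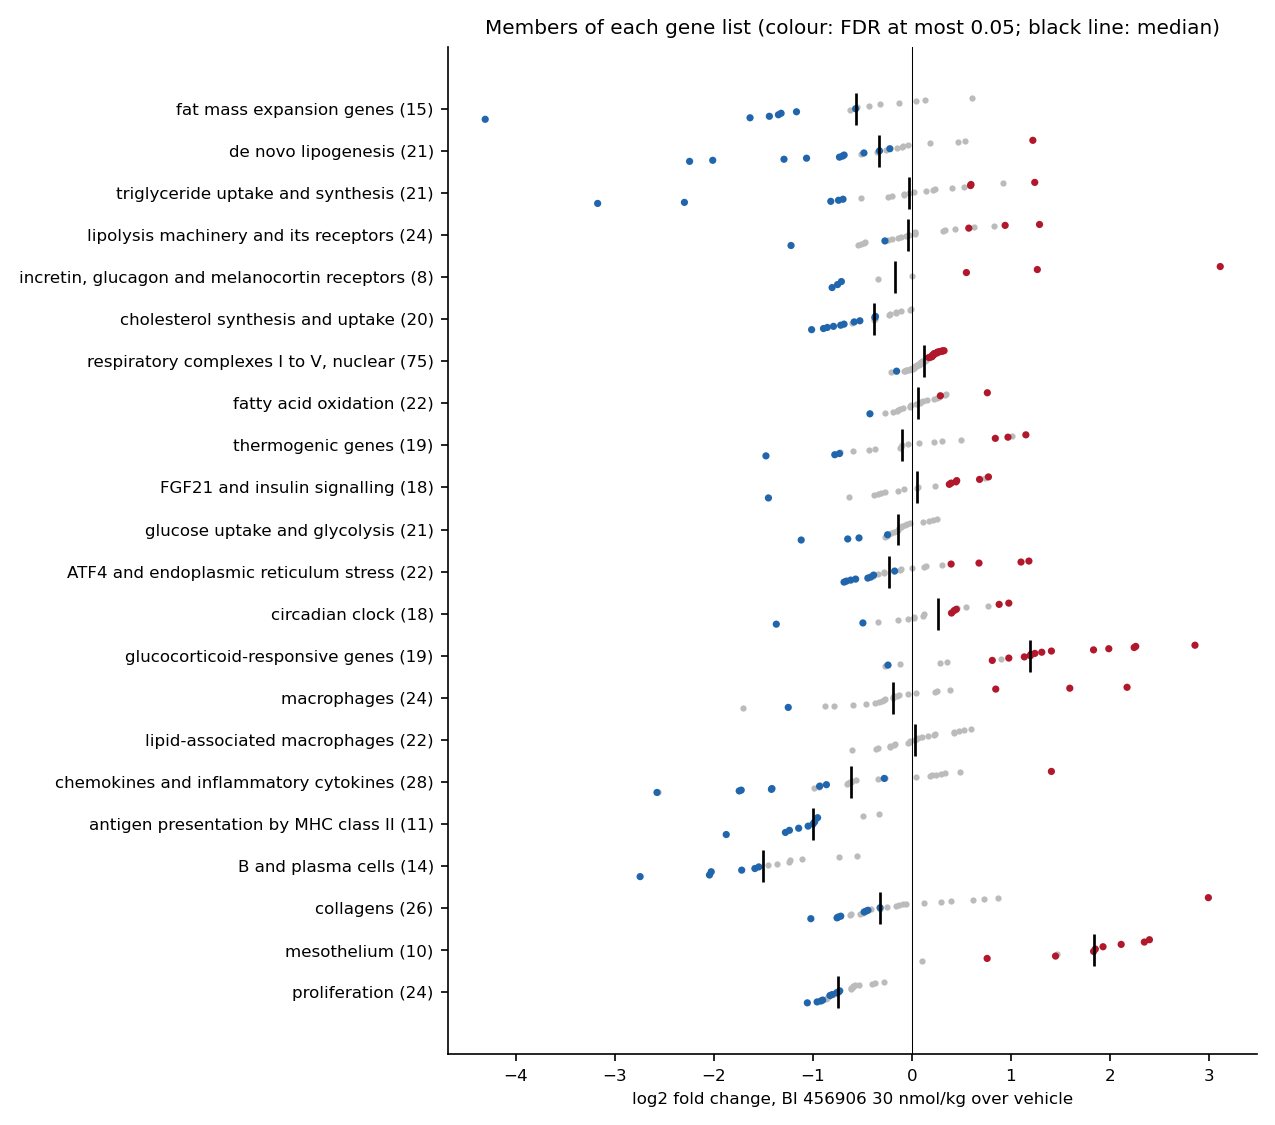
Log2 fold changes (BI 456906 30 nmol/kg over vehicle) of the described members of 22 gene lists, 1 point per gene, with the number of members in brackets. Red and blue points rose or fell at an FDR of at most 0.05, grey points did not pass, and a black line is the median, from -1.50 for B and plasma cells to 1.84 for mesothelium.

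Nuclear genes of the respiratory chain had small changes, mostly above 0. Of 75 nuclear genes for respiratory complexes I to V, 16 rose and 1 fell, and 64 were above 0 (median 0.12). Ndufs7, a subunit of complex I, went from 140.1–167 TPM, median 151, to 169.7–209.7 TPM, median 202 (log2 fold change 0.33 ± 0.07 SE, FDR 0.00185), and Cox4i1 of complex IV had a log2 fold change of 0.28 (FDR 0.00504, 0.000237 to 0.133 over the alternatives). The count of rises was 32 without vehicle library 6 and 37 with quality weights, while 8 members rose without vehicle libraries 1 and 3, and 3 without libraries 1, 2 and 3. In the tricarboxylic acid cycle 1 of 20 rose (Idh3b, log2 fold change 0.29, FDR 0.0067, 3.53e-05 to 0.0538 over the alternatives; median 0.09), and 8 with quality weights. In fatty acid oxidation Pdk4, the kinase that spares glucose, had a log2 fold change of 0.76 (FDR 0.0367, 0.000552 to 0.162 over the alternatives), Acot2 also rose, and Pex11a, of peroxisomes, had a log2 fold change of -0.42 (FDR 0.0461, 0.00765 to 0.619 over the alternatives), which made 2 rises and 1 fall of 22. The rises numbered 0 without library 4, 26 or 27, 5 without vehicle library 5 or 6 and 7 with quality weights. For branched-chain amino acid breakdown 19 of 20 genes were above 0 (median 0.23) and 2 rose, against 14 with quality weights and 4 without vehicle library 6. The 2 were Bcat2, the mitochondrial transaminase (from 105–132 TPM, median 125, to 141–199.8 TPM, median 183, log2 fold change 0.49 ± 0.13 SE, FDR 0.00484), and Bckdk, the kinase that inhibits the next enzyme (log2 fold change 0.21, FDR 0.0127, 0.000293 to 0.284 over the alternatives).

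Thermogenic genes did not move as a group, with 3 rises and 3 falls of 19 (median -0.10). Ucp1, the uncoupling protein of brown fat, stayed at 0.030 to 0.48 TPM (median 0.15) in vehicle and 0.060 to 1.13 TPM (median 0.22) in BI 456906 (log2 fold change 1.01 ± 0.68 SE, FDR 0.288). Ppargc1a, the coactivator of mitochondrial genes, went from 0.45–1.42 TPM, median 1.0, to 1.04–3.38 TPM, median 2.15 (log2 fold change 1.15 ± 0.36 SE, FDR 0.0177, 0.000336 to 0.25 over the alternatives). Cidea, a lipid droplet protein of brown fat (log2 fold change 0.97, FDR 0.0196, 0.00249 to 0.153 over the alternatives, with 18.3% of its vehicle mean attributable to liver RNA), and Cox8b (log2 fold change 0.84, FDR 0.0494, 0.00197 to 0.138 over the alternatives) rose, and Otop1, a proton channel, fell from 4.15–6.34 TPM, median 4.75, to 1.49–2.87 TPM, median 1.78 (log2 fold change -1.47 ± 0.31 SE, FDR 0.000889). The fits of Ppargc1a, Cidea and Cox8b did not hold under every alternative, and without vehicle libraries 1 and 3 no gene of this list rose.

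Among genes of insulin and FGF21 signalling, 6 of 18 rose and 1 fell (median 0.06). Irs2, an insulin receptor substrate that FOXO1 raises when insulin is low, went from 18.9–35.6 TPM, median 24, to 23.9–50.7 TPM, median 42.1 (log2 fold change 0.68 ± 0.22 SE, FDR 0.0209, 0.000406 to 0.221 over the alternatives), and Foxo1 itself had a log2 fold change of 0.77 (FDR 0.0041, 2.61e-05 to 0.0721 over the alternatives). Irs3, a substrate particular to rodents and rich in adipocytes, fell from 25.6–56.1 TPM, median 35.8, to 7.84–20.7 TPM, median 13.9 (log2 fold change -1.45 ± 0.25 SE, FDR 9.97e-05). Fgfr1, the receptor that adipocytes use for FGF21, had a log2 fold change of 0.45 (FDR 0.00531, 0.00107 to 0.0725 over the alternatives), and its partner Klb had a log2 fold change of 0.06 (FDR 0.909). Irs1 had a log2 fold change of 0.05 (FDR 0.909). Fgf21 was set aside as a liver transcript, at 0.61 to 1.79 TPM (median 1.11) and 0.48 to 1.26 TPM (median 0.58). Igf1r, Pik3r1 and Trib3 also rose. The counts were 3 and 1 without vehicle libraries 1 and 3, and 0 and 1 without libraries 1, 2 and 3.

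Macrophage markers did not move one way. Of 24 markers 3 rose and 1 fell, and 3 and 1 without vehicle libraries 1 and 3. The falls numbered 3 in edgeR and DESeq2 and 8 with quality weights. Lyve1, a hyaluronan receptor of resident macrophages and of lymphatic vessels, was at 4.68 to 29.2 TPM (median 20.3) in vehicle and 31.6 to 110.4 TPM (median 76.5) in BI 456906 (log2 fold change 2.17 ± 0.48 SE, FDR 0.00125), with all treated libraries above vehicle. Cd163, the haemoglobin scavenger receptor, went from 13.1–42.6 TPM, median 26.4, to 35–108 TPM, median 94.8 (log2 fold change 1.6 ± 0.39 SE, FDR 0.00343), and Mertk, a receptor for dying cells, went from 23.4–46.1 TPM, median 31.1, to 47.8–71.5 TPM, median 62.1 (log2 fold change 0.85 ± 0.24 SE, FDR 0.00969). Ccr2, the chemokine receptor of incoming monocytes, fell from 25.5–50 TPM, median 31.2, to 12–18.4 TPM, median 14.9 (log2 fold change -1.25 ± 0.27 SE, FDR 0.00117). Adgre1 (F4/80), a general macrophage marker, had a log2 fold change of -0.59 (FDR 0.127), and the summed level of the 24 markers was 5815 to 15730 TPM in vehicle and 7313 to 14040.5 TPM in BI 456906 (p = 0.31, exact two-sided permutation test). None of the 22 genes of lipid-associated macrophages, the cells that ring dying adipocytes, passed the test by limma, edgeR or DESeq2, and 0 had an unadjusted p under 0.05 in limma, while 4 fell with quality weights. Trem2, their receptor, was at 242 to 686 TPM (median 408) and 303 to 845 TPM (median 387) (log2 fold change 0.04 ± 0.30 SE, FDR 0.932), its highest value being that of treated library 29.

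Chemokines and cytokines fell in 8 of 28 genes (median -0.62), but in 2 without vehicle libraries 1 and 3 and in 0 without libraries 1, 2 and 3. The falls numbered 3 without vehicle library 1 alone, 10 in DESeq2 and 12 with quality weights. Ccl2, which draws CCR2 cells, was at 41.1 to 78.6 TPM (median 52) in vehicle and 10.8 to 32.5 TPM (median 20.7) in BI 456906 (log2 fold change -1.41 ± 0.52 SE, FDR 0.0441, 0.0010 to 0.242 over the alternatives). Ccl7, another ligand of CCR2, went from 25.9–59 TPM, median 34.8, to 6.77–19.1 TPM, median 10.7 (log2 fold change -1.74 ± 0.58 SE, FDR 0.026, 0.00127 to 0.224 over the alternatives), also with no overlap. Tnf went from 2.21–8.82 TPM, median 4.58, to 1.13–2.71 TPM, median 1.47 (log2 fold change -1.42 ± 0.37 SE, FDR 0.00579, 7.1e-05 to 0.178 over the alternatives). Cxcl10 (log2 fold change -2.58, FDR 0.0155, 4.28e-06 to 0.273 over the alternatives) and Cxcl9 (log2 fold change -1.72, FDR 0.0195, 8.13e-06 to 0.328 over the alternatives), chemokines that interferon-gamma raises, had highest vehicle values of 39.4 and 155 TPM against medians of 3.77 and 14.8 TPM. Lcn2, lipocalin-2, was the 1 member that rose, from 5.05–11.3 TPM, median 9.19, to 16.1–26.8 TPM, median 24.8 (log2 fold change 1.41 ± 0.40 SE, FDR 0.0109, 0.00219 to 0.0702 over the alternatives), with 18.7% of its vehicle mean attributable to liver RNA.

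Genes for antigen presentation by MHC class II fell in 8 of 11 (median -1.0), and the groups did not overlap for 6. Without vehicle libraries 1 and 3 the median was -0.42 and 2 fell, Ciita and H2-DMb1. The falls numbered 4 without library 3 alone, 3 with the 12 libraries alone, 9 in edgeR and DESeq2 and 10 with quality weights. Ciita, the transactivator that all class II genes need, was at 9.54 to 50.5 TPM (median 12.3) in vehicle and 3.03 to 7.78 TPM (median 4.66) in BI 456906 (log2 fold change -1.88 ± 0.37 SE, FDR 0.000453; -1.23, FDR 0.00737 without the pair). H2-DMb1, part of the peptide loader, went from 108–299 TPM, median 124, to 55.6–83 TPM, median 61.9 (log2 fold change -1.28 ± 0.24 SE, FDR 0.000209; -0.85, FDR 0.00549). The peptide-binding chains H2-Aa (from 1035–4006 TPM, median 1232, to 685–1029.8 TPM, median 873, log2 fold change -0.98 ± 0.28 SE, FDR 0.0107, 0.000523 to 0.417 over the alternatives), H2-Ab1 (log2 fold change -1.0, FDR 0.00958, 0.000395 to 0.396 over the alternatives) and H2-Eb1 (log2 fold change -1.05, FDR 0.0127, 0.000479 to 0.467 over the alternatives) and the invariant chain Cd74 (log2 fold change -0.95, FDR 0.00966, 0.00041 to 0.426 over the alternatives) differed by -0.42, -0.42, -0.42 and -0.39 without libraries 1 and 3, which did not pass. B cells carry these genes as well as macrophages and dendritic cells do, and the part of the B cell RNA in the falls was not tested beyond leaving out these libraries. The promoters of 3 members are shown because class II genes share an X box and a Y box close upstream. The letters searched were CTGATTGG for the Y box and CCTAGNAAC for the X box, on both strands of the 250 bases before the start, without overlap between them. Of the 6 members with a promoter in the table, H2-Aa (chr17:34287824-34288073, minus strand) and H2-Eb1 (chr17:34305617-34305866, plus strand) hold the first, 51 and 62 bases before the start, and H2-DMb1 (chr17:34152941-34153190, plus strand) holds the second. In all promoters the shares are 3.83% and 1.29%. Capitals mark the match. The search took these exact letters only, so a box that differs from them in a base is not marked.

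H2-Aa: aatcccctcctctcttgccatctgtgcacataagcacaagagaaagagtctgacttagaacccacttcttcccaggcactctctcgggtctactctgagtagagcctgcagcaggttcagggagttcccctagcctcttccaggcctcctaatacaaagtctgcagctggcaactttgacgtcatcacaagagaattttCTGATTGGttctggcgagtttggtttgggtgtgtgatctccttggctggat
H2-Eb1: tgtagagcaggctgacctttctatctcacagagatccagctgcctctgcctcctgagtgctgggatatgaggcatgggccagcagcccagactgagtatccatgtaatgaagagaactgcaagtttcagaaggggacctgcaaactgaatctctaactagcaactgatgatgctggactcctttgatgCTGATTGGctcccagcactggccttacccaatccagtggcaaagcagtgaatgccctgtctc
H2-DMb1: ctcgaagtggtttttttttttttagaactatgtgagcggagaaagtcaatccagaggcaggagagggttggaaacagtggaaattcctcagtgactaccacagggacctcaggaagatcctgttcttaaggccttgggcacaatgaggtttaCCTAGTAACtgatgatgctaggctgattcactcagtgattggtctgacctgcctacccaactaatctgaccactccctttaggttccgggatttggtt

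The count of lymphocyte markers that fell depended on the test and on single libraries. Of 14 B and plasma cell markers, all below 0, 6 fell in limma, 13 in edgeR, 14 in DESeq2, 10 with quality weights and 10 without vehicle library 6. The falls numbered 3 with the 12 libraries alone and 2 without vehicle libraries 1 and 3. Ighm, the heavy chain of IgM, was at 338 to 7167 TPM (median 581) in vehicle and 85.2 to 403 TPM (median 112) in BI 456906 (log2 fold change -2.75 ± 0.67 SE, FDR 0.00336, 8.25e-05 to 0.177 over the alternatives), and Cr2, a complement receptor, stayed below 1 TPM (log2 fold change -2.05, FDR 0.0067, 0.000132 to 0.262 over the alternatives). Of 24 T, NK and innate lymphoid markers 3 fell in limma, 16 in edgeR, 17 in DESeq2, 5 without vehicle library 4 and 1 without the pair, among them Trac (log2 fold change -1.47, FDR 0.0373, 0.00166 to 0.527 over the alternatives) and Cd2 (log2 fold change -1.06, FDR 0.00643, 0.000113 to 0.402 over the alternatives). The dendritic cell list had 3 falls of 9 (Xcr1, log2 fold change -1.35, FDR 0.0389, 0.000172 to 0.748 over the alternatives; Clec9a, log2 fold change -1.29, FDR 0.0117, 5.25e-05 to 0.255 over the alternatives; Batf3, log2 fold change -0.98, FDR 0.00762, 0.000643 to 0.206 over the alternatives) and 0 without the pair. The interferon-stimulated list had 4 falls of 24, among them Gbp2 (log2 fold change -1.01, FDR 0.023, 0.00035 to 0.641 over the alternatives), 0 without the pair, 1 without library 3 alone, 7 without vehicle library 6 and 8 in edgeR and DESeq2. S100a8, an alarmin of neutrophils, fell from 9.3–17.3 TPM, median 13.3, to 1.72–4.72 TPM, median 3.33 (log2 fold change -1.95 ± 0.56 SE, FDR 0.0105), the 1 of 10 neutrophil and mast cell markers to do so in limma and edgeR. For this list 6 fell with quality weights and 0 in DESeq2, which gave no FDR for S100a8.

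Proliferation genes were below 0 in all 24 cases (median -0.75), and 9 fell. The count was 0 without vehicle libraries 1 and 3, 2 without library 25, 13 in DESeq2, 15 with the 12 libraries alone, 16 without library 29 and 24 with quality weights. Mki67, present in dividing cells of every type, was at 6.78 to 12.3 TPM (median 10.5) in vehicle and 3.23 to 6.58 TPM (median 4.62) in BI 456906 (log2 fold change -1.06 ± 0.30 SE, FDR 0.00902, 0.000159 to 0.136 over the alternatives), without overlap, and Top2a had a log2 fold change of -0.96 (FDR 0.0285, 0.00073 to 0.26 over the alternatives). Of 8 senescence genes Cdkn1a (p21) rose from 64.2–113 TPM, median 93.6, to 119–157 TPM, median 143 (log2 fold change 0.70 ± 0.15 SE, FDR 0.000842), and Cdkn2a (log2 fold change -1.17, FDR 0.00307, 0.000103 to 0.084 over the alternatives) and Ccnd1 (log2 fold change -0.75, FDR 0.00373, 0.000113 to 0.101 over the alternatives) fell.

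Collagens fell in 8 of 26 genes and rose in 1 (median -0.32), and 10 fell without vehicle libraries 1 and 3. The falls numbered 3 without library 25, 4 without vehicle library 5 or 6, 4 with the 12 libraries alone and 13 with quality weights. Those that fell were mainly of basement membrane and of the pericellular mesh: Col15a1 (from 195–271 TPM, median 229, to 88.2–172 TPM, median 116, log2 fold change -1.02 ± 0.22 SE, FDR 0.00103), Col6a2 (log2 fold change -0.74, FDR 0.00753) and Col4a1 (log2 fold change -0.32, FDR 0.0473, 0.0048 to 0.161 over the alternatives) among them. Col1a1, the main fibrillar collagen, had a log2 fold change of -0.25 (FDR 0.648). Col11a1, at 0 to 0.060 TPM in vehicle and 0.030 to 0.13 in BI 456906, is too low for its rise (log2 fold change 3.0, FDR 0.0172, 0.00457 to 0.286 over the alternatives) to be sized. Sparc, a matrix protein that binds collagen IV, fell from 1983–4071 TPM, median 2551, to 1094–1873 TPM, median 1215 (log2 fold change -1.12 ± 0.19 SE, FDR 8.16e-05). Among the other 26 matrix genes 5 rose, among them Dcn, decorin (from 1100.2–1626 TPM, median 1299, to 1670.2–2402 TPM, median 2091, log2 fold change 0.60 ± 0.15 SE, FDR 0.00463), Ccn2, connective tissue growth factor (log2 fold change 0.86, FDR 0.0166), and Timp3, an inhibitor of metalloproteases (log2 fold change 0.82, FDR 0.0452, 0.000724 to 0.372 over the alternatives). Without vehicle libraries 1 and 3, 2 of these matrix genes rose.

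Mesothelium, the cell sheet on the surface of visceral fat, gave 8 rises among 10 markers described and a median log2 fold change of 1.84. Without vehicle libraries 1 and 3 4 rose, at a median of 1.74. The rises also numbered 4 without vehicle library 6, 4 in edgeR and 3 with the 12 libraries alone. Bnc1 (from 0.020–3.03 TPM, median 1.45, to 1.54–4.77 TPM, median 3.62, log2 fold change 2.4 ± 0.69 SE, FDR 0.0106, 0.00475 to 0.0742 over the alternatives), Muc16 (from 0.16–7.17 TPM, median 2.5, to 3.64–16.9 TPM, median 8.46, log2 fold change 2.35 ± 0.72 SE, FDR 0.0173, 0.00891 to 0.0672 over the alternatives), Upk3b (log2 fold change 1.93, FDR 0.0178, 0.00855 to 0.0827 over the alternatives) and Msln (log2 fold change 1.85, FDR 0.0155, 0.0045 to 0.0619 over the alternatives) rose. The summed level of the 12 listed markers was 64.9 to 261 TPM in vehicle, lowest in libraries 1 and 6, and 148 to 342 TPM in BI 456906 (p = 0.0411, exact two-sided permutation test, 0.115 adjusted over 14 marker lists, 0.124 unadjusted without vehicle libraries 1 and 3). This sum keeps 2 markers that were set aside as liver transcripts, and its highest vehicle value was in library 2, which had the highest liver share. How much of the pad surface each piece held is not given in the sources used here.

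Progenitor fibroblast markers had 2 rises and 1 fall of 18 (Fmo2, log2 fold change 1.21, FDR 0.00374; Cd55, log2 fold change -0.74, FDR 4.86e-06), and their summed level, led by Gsn, went from 6589–10233 to 8548–12835 TPM (p = 0.0173, exact two-sided permutation test, 0.115 adjusted). The median over the list had a log2 ratio of -0.065 (p = 0.567, exact permutation test). Of 15 endothelial markers only Rbp7, a retinol-binding protein of fat capillaries, rose (log2 fold change 1.04, FDR 0.0485, 0.0011 to 0.313 over the alternatives), and of 10 smooth muscle and pericyte markers only Tagln (log2 fold change 0.80, FDR 0.0383, 0.00187 to 0.318 over the alternatives). With quality weights 7 and 4 members rose. None of either list rose in edgeR or without vehicle libraries 1 and 3. The summed levels of endothelial, smooth muscle, neutrophil and mast cell, and T cell markers had p of 0.162, 0.652, 0.409 and 0.113 (exact two-sided permutation tests), and those of B and dendritic cells both had 0.039. Without vehicle libraries 1 and 3 the same test of the sums gave p of 0.171 for B cells, 0.171 for dendritic cells and 0.0762 for progenitors. With the median over the list in place of the sum, neutrophils and mast cells had a log2 ratio of -1.18 (p = 0.00216, the smallest this exact permutation test can give) and dendritic cells a p of 0.00433, neither adjusted over the lists. For the sums, over the 14 lists no adjusted p was below 0.115.

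Genes that glucocorticoid hormones are known to raise were high in treated fat. They were gathered into a list of 20 only after their values had been seen, so their count describes them and tests nothing. Of 19 described 13 rose and 1 fell (median 1.2), 13 rose without vehicle libraries 1 and 3, and for 12 the groups did not overlap. Fkbp5 (chromosome 17, 28399094 to 28517527), the chaperone partner of the glucocorticoid receptor, was at 27.2 to 64 TPM (median 33.8) in vehicle and 110.1 to 209 TPM (median 194) in BI 456906 (log2 fold change 2.26 ± 0.44 SE, FDR 0.000345). Tsc22d3 (GILZ) went from 154–254 TPM, median 216, to 385–569.9 TPM, median 537 (log2 fold change 1.31 ± 0.25 SE, FDR 0.000345). Zbtb16, a transcription factor, went from 15.2–29 TPM, median 18.3, to 39.8–115 TPM, median 91.7 (log2 fold change 1.99 ± 0.44 SE, FDR 0.0013). Sgk1, a kinase, went from 57.5–91.8 TPM, median 64.4, to 139–166 TPM, median 149 (log2 fold change 1.14 ± 0.14 SE, FDR 1.89e-06). Ddit4, an inhibitor of mTORC1, went from 21.2–68.3 TPM, median 30.4, to 111–232 TPM, median 193 (log2 fold change 2.25 ± 0.43 SE, FDR 0.000309), and Cebpd, an early adipogenic factor, went from 11.6–15.8 TPM, median 13.8, to 32.7–65.2 TPM, median 60.7 (log2 fold change 1.84 ± 0.29 SE, FDR 3.51e-05). Klf9 (log2 fold change 1.2, FDR 6.9e-05), the metallothioneins Mt1 (log2 fold change 1.2, FDR 0.000362) and Mt2 (log2 fold change 1.24, FDR 0.00601, 0.00179 to 0.142 over the alternatives), and Nfkbia (log2 fold change 0.81, FDR 0.000564) rose as well. Nr3c1, the receptor itself, had a small fall (log2 fold change -0.24, FDR 0.013, 0.0112 to 0.117 over the alternatives). No hormone was measured in these files, and several of these genes also respond to other signals. Promoters are shown for Sgk1 and Fam107a, which with Mt1 were the 3 of 16 members in the table whose 250 bases before a start hold the palindrome of the glucocorticoid response element, GNACA and TGTNC with 3 bases between them (capitals). It stands in 0.387% of all promoters of the table. This share, like those of the elements above, counts single promoters, while members are counted by gene over all their starts. Sgk1 has 6 starts there, of which 1 holds the match, and Fam107a has 3, of which 2 hold it and 1 is shown. The region shown lies for Sgk1 at chr10:21993640-21993889 on the plus strand and for Fam107a at chr14:8309780-8310029 on the minus strand.

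Sgk1: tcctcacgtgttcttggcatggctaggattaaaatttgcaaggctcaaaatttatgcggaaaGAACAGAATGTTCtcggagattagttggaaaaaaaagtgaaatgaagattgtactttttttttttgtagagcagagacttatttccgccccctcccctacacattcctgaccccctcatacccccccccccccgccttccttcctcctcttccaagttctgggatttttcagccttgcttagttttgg
Fam107a: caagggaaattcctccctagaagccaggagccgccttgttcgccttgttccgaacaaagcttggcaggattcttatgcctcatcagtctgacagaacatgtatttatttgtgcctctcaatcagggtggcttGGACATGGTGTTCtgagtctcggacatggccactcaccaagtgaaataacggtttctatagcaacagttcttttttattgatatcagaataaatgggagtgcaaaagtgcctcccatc

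Clock genes, which cycle over the day, had 5 rises and 2 falls of 18. Per1, a repressor that glucocorticoids and cAMP also raise, went from 27.8–50.2 TPM, median 31.8, to 55.8–77.5 TPM, median 73.9 (log2 fold change 0.98 ± 0.16 SE, FDR 6.3e-05), and Nfil3 rose (log2 fold change 0.88, FDR 0.00889; 9.8% of its vehicle mean attributable to liver RNA). Nr1d1 (REV-ERB alpha) fell from 13.2–40.9 TPM, median 23.6, to 6.19–16.4 TPM, median 9.15 (log2 fold change -1.37 ± 0.25 SE, FDR 0.000161), and Dbp, like it a target of BMAL1, had a log2 fold change of -0.50 (FDR 0.0273, 0.00338 to 0.129 over the alternatives). The counts were 5 and 2 without vehicle libraries 1 and 3. Among cAMP-responsive genes and phosphodiesterases 3 of 20 rose (Per1, Ppargc1a and Pde10a) and Pde4b fell, against 6 rises without library 29 and 8 with quality weights. For these genes 1 rose and 0 fell without vehicle libraries 1 and 3.

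Genes of the integrated and endoplasmic reticulum stress responses moved both ways. Of 22 genes 4 rose, all targets of ATF4: Asns, asparagine synthetase (from 21–35 TPM, median 24.8, to 45–76.6 TPM, median 67.9, log2 fold change 1.18 ± 0.20 SE, FDR 8.3e-05), Chac1 (log2 fold change 1.1, FDR 0.00577, 0.000144 to 0.0834 over the alternatives), Trib3 and Sesn2. The 8 that fell were mostly chaperones of the endoplasmic reticulum, such as Hspa5 (BiP, from 490.1–835 TPM, median 753, to 383–520.2 TPM, median 425, log2 fold change -0.66 ± 0.17 SE, FDR 0.00517, 0.000122 to 0.115 over the alternatives) and Calr (log2 fold change -0.45, FDR 0.0223, 0.000119 to 0.219 over the alternatives). Without vehicle libraries 1 and 3, 2 rose and 3 fell, and without libraries 1, 2 and 3, 1 rose and 1 fell. In glycolysis 4 of 21 fell and none rose: Pfkfb3, the enzyme that sets the pace through fructose 2,6-bisphosphate (from 73.9–192 TPM, median 106, to 37.5–59.4 TPM, median 55.2, log2 fold change -1.12 ± 0.25 SE, FDR 0.00129), Eno1 (from 514–551 TPM, median 522, to 293–416 TPM, median 330.4, log2 fold change -0.65 ± 0.12 SE, FDR 0.00017), Tpi1 and Ldha. Of the hypoxia genes 3 of 14 rose, Vegfa (log2 fold change 1.03, FDR 0.0361, 0.000467 to 0.238 over the alternatives) and Egln3 (log2 fold change 0.87, FDR 0.0242, 0.00219 to 0.137 over the alternatives) at their head, and Higd1a fell. For this list 1 rose and 1 fell without vehicle libraries 1 and 3. Of the antioxidant genes 4 of 19 rose, namely Gpx3, the secreted glutathione peroxidase (from 311–492 TPM, median 411, to 542–1220.3 TPM, median 875, log2 fold change 1.09 ± 0.26 SE, FDR 0.00236), Gsta4 (log2 fold change 1.09, FDR 0.00604, 0.000646 to 0.0538 over the alternatives; 16.5% attributable to liver RNA in vehicle), Gpx1 (log2 fold change 0.30, FDR 0.0441, 0.00833 to 0.0977 over the alternatives) and Sod1, and 2 fell. Without vehicle libraries 1 and 3 the antioxidant counts were 2 and 2. Of the NAD genes 4 of 13 rose, led by Nmnat3, the mitochondrial adenylyltransferase of NAD synthesis (from 5.7–7.13 TPM, median 6.16, to 10.6–12.6 TPM, median 11.1, log2 fold change 0.78 ± 0.11 SE, FDR 4.72e-06), and Nampt, the enzyme of NAD salvage (log2 fold change 0.67, FDR 0.00191), and Parp1 fell. Nnmt, which methylates nicotinamide, had a log2 fold change of -0.34 (FDR 0.275).

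The remaining lists held few changes. Glycogen metabolism had 1 fall of 14 (Ppp1r3d, log2 fold change -0.41, FDR 0.00849). Of 10 skeletal muscle transcripts Actn3 rose and Pvalb and Mb (log2 fold change -1.68, FDR 0.0207, 0.00239 to 0.0666 over the alternatives) fell, and of 2 pancreas and gut transcripts Cela1 fell (log2 fold change -0.66, FDR 0.0188, 0.00251 to 0.0972 over the alternatives). Neither of the 2 epididymis and testis transcripts described passed, nor did the 1 liver transcript that was not set aside, Trf. The summed levels of the liver, epididymis, muscle, and pancreas and gut lists had p of 0.0714, 0.994, 0.623 and 0.0152 (exact two-sided permutation tests). With the median over the list the muscle transcripts changed sign, from a log2 ratio of 0.14 to -1.66 (p = 0.00216, exact permutation test), and the liver transcripts went to -3.09 (p = 0.0195). Neither p was adjusted over the lists, and 2 of the 12 muscle transcripts in the median were below the filter. Across all lists the most abundant 2 members of each made 84 genes, of which 15 rose and 13 fell. The other 56 had log2 fold changes between -1.24 (Igkc) and 0.63 (Pnpla2).

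The lower doses placed these levels in a series. The comparisons share the vehicle libraries. Against vehicle, limma called 0 genes at 3 nmol/kg, 3 higher and 28 lower at 10 nmol/kg, 61 and 111 at 20 nmol/kg and 418 and 433 at 30 nmol/kg. At 3 nmol/kg 1 gene was at an FDR of at most 0.05 and 1410 had an unadjusted p under 0.05. The median of Oxtr was 38.6, 19.4, 7.32, 5.29 and 1.34 TPM from vehicle to 30 nmol/kg, and its log2 fold changes were -1.21 (FDR 0.331), -2.31 (FDR 0.00313) and -2.86 (FDR 9.28e-05) at the lower doses. Dgat2 had medians of 751, 552, 328, 309 and 191 TPM and passed first at 20 nmol/kg, where its log2 fold change was -1.41 (FDR 0.0344). Mest, with 247, 184, 76, 97 and 12.3 TPM, passed only at 30 nmol/kg, and so did Lep (965, 868, 434, 425 and 306 TPM). The ranges of neighbouring doses overlapped for these 4 genes, except that the 6 values of Oxtr at 3 nmol/kg lay below those of vehicle. Among genes that rose, Fkbp5 had 33.8, 39.4, 49, 68.1 and 194 TPM and Mc5r 0.39, 0.28, 0.54, 0.48 and 3.98 TPM, neither past the threshold below 30 nmol/kg. Sgk1 passed at 20 nmol/kg, where its log2 fold change was 0.79 (FDR 0.00107).

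**Figure D5:**
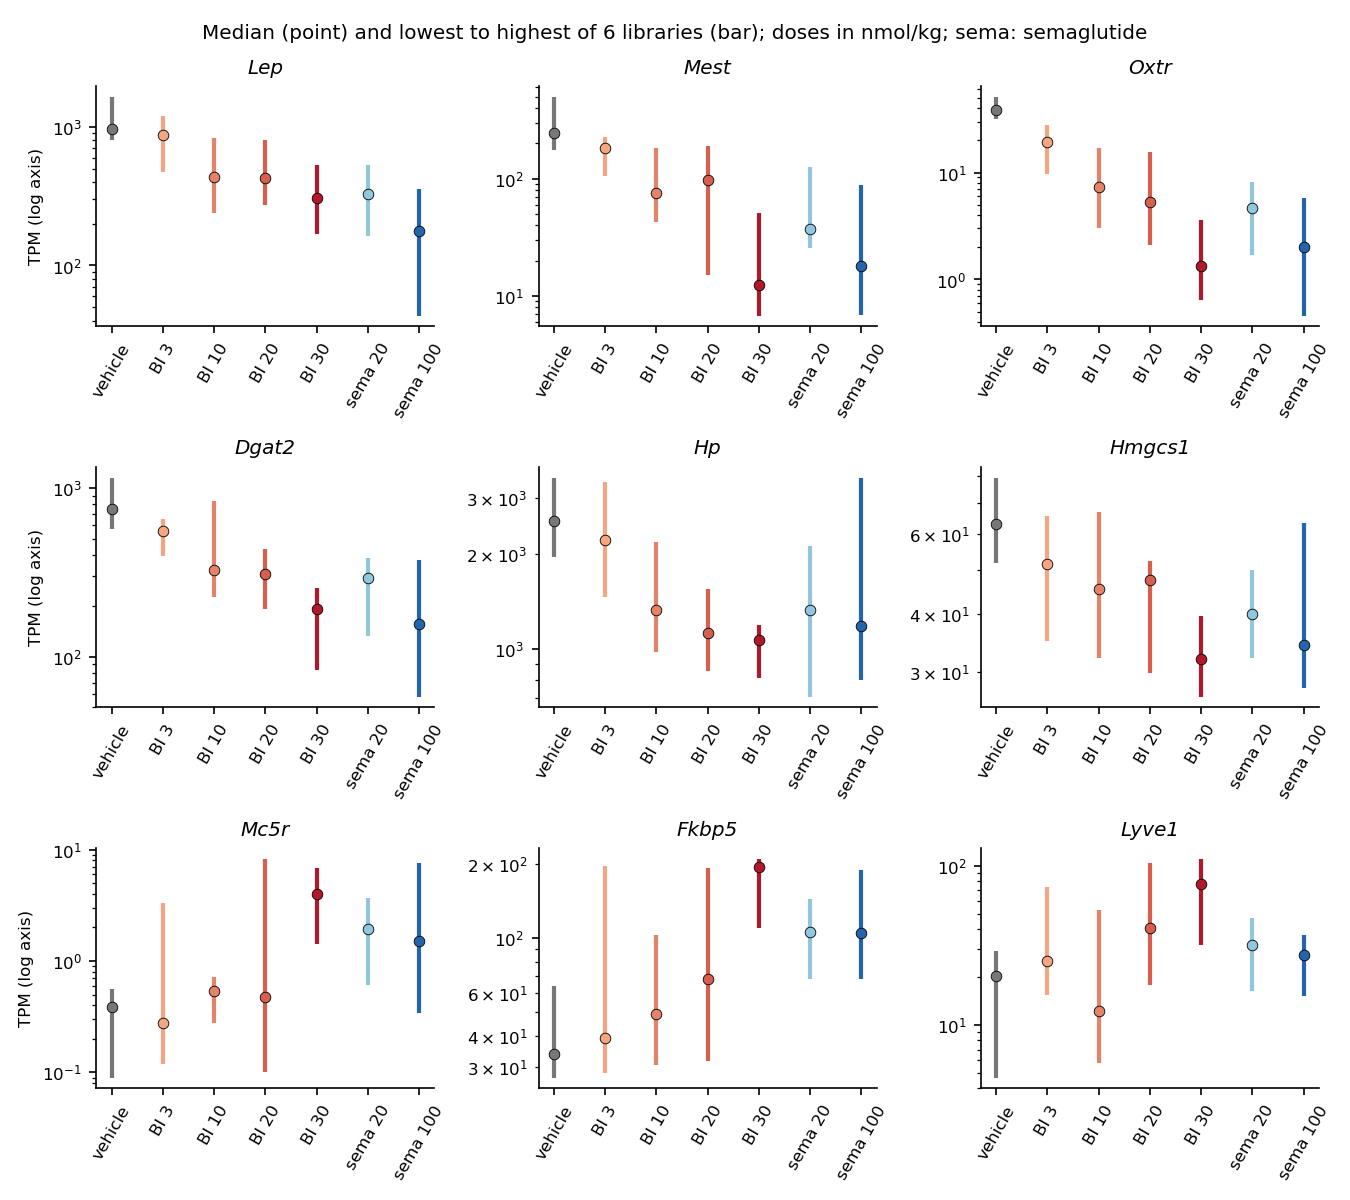
TPM (log axis) of 9 genes in the 7 eWAT groups, as the median (point) and the range from the lowest to the highest of 6 libraries (bar), with BI 456906 (BI) and semaglutide (sema) at the doses in nmol/kg on the axis. Oxtr goes from 38.6 TPM in vehicle to 1.34 at 30 nmol/kg of BI 456906 and 2.01 at 100 nmol/kg of semaglutide.

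Semaglutide was given at up to 100 nmol/kg. The doses of the 2 agents are not matched, so the difference between them belongs to these doses alone. Against vehicle, 129 genes were called higher and 395 lower at 100 nmol/kg. Of the 17852 genes 2 (0.0112%) differed between BI 456906 30 nmol/kg and semaglutide 100 nmol/kg at an FDR of at most 0.05, both higher with BI 456906: Tent5b (log2 difference 1.38, FDR 0.0205) and Dusp18 (0.57, FDR 0.0205). None was lower, while 4537 had an unadjusted p under 0.05. Tent5b, a poly(A) polymerase, was at 1.46 to 3.0 TPM (median 2.36) in vehicle, 4.67 to 8.09 TPM (median 6.83) in BI 456906 and 1.81 to 3.51 TPM in semaglutide. None of the intervals below is adjusted for the number of genes tested. The interval of the difference was wide and held 0 for Mest, Oxtr and Dgat2. The log2 differences (BI 456906 minus semaglutide) were -0.38, 95% confidence interval -1.49 to 0.72, for Mest, -0.17, 95% confidence interval -1.52 to 1.17, for Oxtr and 0.18, 95% confidence interval -0.47 to 0.83, for Dgat2. The interval lay above 0, without passing the FDR, for Lep (0.74, 95% confidence interval 0.01 to 1.48), Cox8b (1.75, 95% confidence interval 1.02 to 2.48), Cidea (1.42, 95% confidence interval 0.76 to 2.07), Lyve1 (1.32, 95% confidence interval 0.39 to 2.25) and Mc5r (1.19, 95% confidence interval 0.07 to 2.32), and below 0 for Mki67 (-1.19, 95% confidence interval -1.79 to -0.59) and Lpl (-0.21, 95% confidence interval -0.38 to -0.05). Cox8b had medians of 54.9 TPM in vehicle, 31.2 in semaglutide 100 nmol/kg and 108 in BI 456906 30 nmol/kg.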

How the data were processed

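RNA of epididymal fat and liver was sequenced, 42 libraries per tissue. Per the labels, total RNA was made into cDNA with a SMART-Seq kit and sequenced as single reads, while the methods of the study describe stranded paired-end libraries, and which holds for eWAT was not settled. If strand was not kept, reads of overlapping antisense genes cannot be told apart. The submitters' processing notes name STAR 2.5.2b, RSEM 1.3.0, featureCounts 1.5.1, FastQC 0.11.5 and the mm10 build. The authors deposited a table of gene values, used here as signal, that are read counts divided by a size factor per library, and a table of TPM (transcript levels per length and depth). Dividing each library by its smallest step gave whole reads for 100% of values (tolerance 0.01), and 40313670 to 50769372 reads per library. More reads give less counting error. Coordinates are those of GENCODE M21 genes and RefSeq promoters (GRCm38.p6), and 48434 of 48794 genes matched a symbol.

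The values were tested with limma 3.58.1 (voom, pseudocount 0.5) after TMM scaling and the expression filter of edgeR 4.0.16, in 1 fit over 42 eWAT libraries and 7 groups, in R 4.3.3. The test had been planned for gene values usable as counts and was kept for the scaled values. Summed marker levels were tested by exact permutation. The sums, and the medians of TPM over a list, keep every listed gene, also those set aside or below the filter. Alternatives were DESeq2 1.42.0 and edgeR on the recovered reads, log2(TPM + 1) and log2(TPM + 0.1), other scalings and filters, the 12 libraries alone, quality weights, other cuts for liver genes, and each library left out. Those without vehicle libraries 1 and 3, or 1, 2 and 3, were chosen after seeing the data. The scripts were tested on simulated data. Labels gave the groups.

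The comparison and gene lists were chosen with earlier results of these data known. Named genes were a fixed set of 25, the 10 largest rises and falls without overlap at a mean of at least 1 TPM, and in each list the 2 members with the largest change at an FDR of at most 0.05 and the 2 most abundant. Other named genes, and the glucocorticoid list, were chosen after their values were seen. Some genes are not reported here.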

Additional observations from a re-analysis of the deposited data

Results flagged for a closer look

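A library that stood far from the other 5 of its group (Dixon's gap test) was found in 22 of 362 sets of 6 values, and chance gives about 1 in 20. They lay mostly in BI 456906 libraries 28 and 29. In library 28, Mest was at 51.2 TPM, Gas2l2 at 0.33 TPM, Tekt1 at 0.3 TPM, Ncan at 0.27 TPM, Sparc at 1873 TPM, Nr1d1 at 16.4 TPM and Tsc22d3 at 385 TPM, and the epididymis and testis transcripts summed to 11.45 TPM. In library 29, Lipe was at 393 TPM and Trem2 at 845 TPM. Its summed levels were 19304 TPM for adipocytes, 14040.5 TPM for macrophages, 1089 TPM for neutrophils and mast cells and 935 TPM for endothelium. Library 25 stood apart for Otop1 at 2.87 TPM and Cxcl10 at 2.26 TPM, and library 27 for its liver share of 1.32%. Among vehicle libraries, 6 stood apart for Fam107a at 5.14 TPM, Cidea at 8.1 TPM, Fkbp5 at 64 TPM and Col11a1 at 0.06 TPM, and 5 for Mc2r at 23.95 TPM.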

How the results depend on the processing

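No paired analysis was possible because the library numbers are not shared between groups. Of 166 named genes, 149 were at an FDR of at most 0.05 and 81 stayed so under every alternative that gave them an FDR. No gene at that FDR changed direction. Of the 149, only 135 had an FDR with at least 10 counts in every library, and 146 with the 12 libraries alone. Genes called higher numbered 238 with at least 10 counts in every library, 136 on log2(TPM + 1), 236 without vehicle libraries 1 and 3 and 176 without libraries 1, 2 and 3, against 418. Genes called lower numbered 273 with at least 10 counts, 677 in edgeR, 706 in DESeq2, 149 on log2(TPM + 1) and 754 with none set aside, against 433. At an FDR of at most 0.05, 3208 rose with quality weights, 1275 without libraries 1 and 3 and 881 without 1, 2 and 3, against 2004, and 1224 fell with the 12 libraries alone, 3567 with quality weights and 1344 without 1, 2 and 3, against 2066. Some of these fits had fewer samples or genes, and the cause of the shifts was not tested. Leaving out 1 library gave 346 to 546 called higher and 351 to 473 called lower. It gave 1849 to 2679 rises and 1370 (without library 26) to 1816 falls, and between 7 (library 28) and 22 (library 26) named genes lost the threshold.

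Summed marker levels moved when the median over the list replaced the sum. The log2 ratio changed sign for adipocytes (-0.81), progenitors (-0.065) and muscle (-1.66), and went to -2.34 for B cells, -1.18 for neutrophils and mast cells and -3.09 for liver. Exact permutation p were then 0.0152, 0.567, 0.00216, 0.0519, 0.00216 and 0.0195 in that order, not adjusted over the lists. With 1 library left out the log2 ratios of the sums were -1.53 to -0.87 for T cells, -3.62 to -2.64 for B cells, -0.74 to -0.45 for dendritic cells, 0.24 to 0.41 for endothelium, 0.64 to 1.04 for mesothelium, -1.19 to -0.56 for liver, -0.21 to 0.12 for epididymis and -0.00023 to 0.27 for muscle. The largest exact permutation p of these sums with 1 library left out was 0.0779 for B cells and for dendritic cells and 0.0823 for mesothelium.

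Genes that did not pass changed sign in places. Adipoq was at 0.17 with quality weights, Lipe at 0.023 with library size alone and 0.19 with quality weights, Trem2 at -0.31 with quality weights, Klb at -0.031 and Irs1 at -0.094 without libraries 1 and 3, and Klb at -0.13, Irs1 at -0.13 and Fabp4 at -0.030 without 1, 2 and 3. Leave-one-out ranges were -0.16 to 0.12 for Adipoq, -0.032 to 0.39 for Klb, -0.11 to 0.14 for Lipe, -0.14 to 0.21 for Trem2 and -0.035 to 0.26 for Irs1.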
